A study of Mus musculus with 12 samples.

Results

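Non-CIN-only H3K27ac regions between genes were stretches of the mouse genome with a called H3K27ac peak in both replicates of the non-CINs and no CIN peak of the same replicate number, whose centre lay outside genes and promoters. They were chosen by the presence and absence of H3K27ac peaks, so their lack of CIN peaks and their strength are described here without a test. There were 724 of them, 26.1% of the 2775 non-CIN-only regions at any position. Of the 7398 regions between genes that both non-CIN lists shared, they made up 9.79%, where all non-CIN-only regions made up 7.94% of 34953. The 4 H3K27ac lists joined held 70293 regions, 18090 of them between genes. Within a list, peaks at most 500 bp apart were first joined. A promoter was taken as 1 kb before a transcription start site (TSS) and 100 bp after it, and genes of every biotype came from the GENCODE vM21 basic annotation of mm10.

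H3K27ac, acetylation of lysine 27 of histone H3, is found on nucleosomes at active promoters and active enhancers. Enhancers are regulatory elements (REs) that can act on a gene from far away, often from the DNA between genes, and they tend to differ more between cell types than promoters do. H3K27me3, trimethylation of the same lysine by Polycomb complexes, marks poised or repressed elements, and a single histone tail cannot carry both marks at this residue. In the newborn cortex, cortical interneurons (CINs) are GABAergic cells born in the basal ganglia, while excitatory projection neurons and most glia arise from the pallium itself.

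Cerebral cortex of untreated *Gad67-GFP* heterozygote pups at postnatal day 2, of a mixed CD-1 background, was dissociated with papain and sorted into GFP+ cells, here the CINs, and GFP- cells, the non-CINs. GFP marks cells that express *Gad67*, an enzyme of GABA synthesis. Both populations carried the same heterozygous allele, and the non-CINs were defined only by lacking GFP. The study describes them as enriched for glutamatergic neurons and glia, a mixture in which a mark in few cells and a weak mark in many cells cannot be told apart. Each sample was tissue pooled from 2 to 3 litters, and native ChIP, in which chromatin is cut with MNase and not cross-linked, was done in 2 replicates per population and mark. The H3K27ac lists held 59667 and 46040 peaks for non-CINs and 62505 and 46310 for CINs (replicates 1 and 2). Read numbers were not used here, so depth is described by these counts alone, and a region without a peak is one where the caller listed none.

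The labels were checked against 36 cell type markers, by a peak over the promoter. Of 8 interneuron markers, 7 had a peak in each CIN list, and 1 and 2 had one in the non-CIN lists. *Gad1*, *Dlx1*, *Dlx2*, *Dlx5* and *Slc32a1* had none in either non-CIN list. All 6 astrocyte and radial glia markers and all 4 oligodendrocyte lineage markers had a peak in every list of both populations. Their strength differed, given as fold-enrichment percentile within a list for replicates 1 and 2. *Aldh1l1* had 95.6 and 74.2 in non-CINs against 65.0 and 60.5 in CINs. *Olig2* had 89.2 and 92.0 against 69.1 and 76.0, and *Sox9*, *Slc1a3*, *Hes5* and *Olig1* were also higher in non-CINs. *Sox10* and *Pdgfra* were lower in non-CINs, and *Aqp4* and *Fabp7* differed in direction between replicates. Of 7 pallial neuron markers, 3 and 5 had a peak in the non-CIN lists and 4 and 3 in the CIN lists. The defining microglial genes *Spi1*, *Cx3cr1*, *Csf1r* and *C1qa* and the endothelial genes *Cldn5*, *Cdh5*, *Kdr* and the pericyte gene *Rgs5* had none in any list. The other markers of these lists did have peaks, *P2ry12* in all 4 lists, *Pdgfrb* in both non-CIN lists and CIN replicate 2, and *Erg* in non-CIN replicate 1. The part that the cell makeup of either population plays in the regions below was not tested.

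The sequences below are given for 8 regions that the results turn on. Those of *Sorl1*, *Ttyh3* and *Wwc1* are the strongest by the lower of their 2 fold-enrichment percentiles, others lie nearest to *Sox9*, *Id2* and *Foxc1*, genes of 3 cell type lists, the *Acvr2a* region belongs to the most compact group of 3, and the *Lef1* region is one of few with H3K27me3. They are read from the plus strand of the mm10 assembly in RefSeq's copy, in full or, for regions over 300 bp, as the central 300 bp. Capitals mark motif cores on either strand, from the 13 listed with the sequence results.
*Sorl1* region, chr9:41924120-41924360: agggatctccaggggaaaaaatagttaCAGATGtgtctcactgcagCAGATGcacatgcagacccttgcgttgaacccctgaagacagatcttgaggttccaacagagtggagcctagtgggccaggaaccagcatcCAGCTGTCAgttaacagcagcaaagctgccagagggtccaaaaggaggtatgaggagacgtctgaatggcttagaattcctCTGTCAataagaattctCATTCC
*Ttyh3* region, chr5:140651371-140651670: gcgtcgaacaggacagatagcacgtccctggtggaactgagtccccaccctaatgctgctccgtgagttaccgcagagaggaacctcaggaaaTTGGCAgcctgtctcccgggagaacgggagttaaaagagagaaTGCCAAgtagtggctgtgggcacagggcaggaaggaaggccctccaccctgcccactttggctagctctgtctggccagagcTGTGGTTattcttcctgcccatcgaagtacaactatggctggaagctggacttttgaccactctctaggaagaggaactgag
*Wwc1* region, chr11:36001144-36001363: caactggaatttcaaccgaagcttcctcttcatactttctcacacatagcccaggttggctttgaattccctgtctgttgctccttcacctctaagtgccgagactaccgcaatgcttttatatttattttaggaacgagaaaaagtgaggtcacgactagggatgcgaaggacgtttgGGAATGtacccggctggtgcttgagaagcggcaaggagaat
*Sox9* region, chr11:112989347-112989646: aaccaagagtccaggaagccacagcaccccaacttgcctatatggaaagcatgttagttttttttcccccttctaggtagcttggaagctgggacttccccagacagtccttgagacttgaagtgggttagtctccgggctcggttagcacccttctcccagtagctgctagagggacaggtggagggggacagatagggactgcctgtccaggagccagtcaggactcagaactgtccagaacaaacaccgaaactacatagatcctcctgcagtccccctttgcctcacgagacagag
*Id2* region, chr12:25252927-25253226: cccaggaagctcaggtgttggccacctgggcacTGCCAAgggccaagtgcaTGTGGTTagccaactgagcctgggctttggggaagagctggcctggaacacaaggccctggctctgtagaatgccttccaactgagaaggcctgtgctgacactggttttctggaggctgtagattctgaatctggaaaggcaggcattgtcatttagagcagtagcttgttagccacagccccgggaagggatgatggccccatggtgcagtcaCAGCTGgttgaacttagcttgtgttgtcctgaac
*Foxc1* region, chr13:31760938-31761221: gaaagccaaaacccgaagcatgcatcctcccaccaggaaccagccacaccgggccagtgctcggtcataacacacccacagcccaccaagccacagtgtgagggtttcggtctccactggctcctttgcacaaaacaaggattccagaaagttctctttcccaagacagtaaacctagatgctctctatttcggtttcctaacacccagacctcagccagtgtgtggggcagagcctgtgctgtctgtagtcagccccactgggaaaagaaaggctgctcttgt
*Acvr2a* region, chr2:47309792-47310091: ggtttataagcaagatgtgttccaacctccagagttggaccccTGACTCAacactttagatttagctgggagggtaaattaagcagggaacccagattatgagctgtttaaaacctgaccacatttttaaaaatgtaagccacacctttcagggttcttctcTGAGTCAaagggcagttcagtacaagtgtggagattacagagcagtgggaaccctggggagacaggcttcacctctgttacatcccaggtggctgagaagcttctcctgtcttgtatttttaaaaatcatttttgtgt
*Lef1* region, chr3:131105864-131106163: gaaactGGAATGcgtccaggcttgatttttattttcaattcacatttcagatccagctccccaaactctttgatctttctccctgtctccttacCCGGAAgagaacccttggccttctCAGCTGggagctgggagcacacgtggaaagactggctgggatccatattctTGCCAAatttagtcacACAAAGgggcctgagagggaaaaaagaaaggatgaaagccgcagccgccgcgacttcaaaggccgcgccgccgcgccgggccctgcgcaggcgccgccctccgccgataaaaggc

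The non-CIN-only regions between genes were short and weak at the deposited thresholds. Their median length was 277 bp, from 8 to 1266 bp, and 158 (21.8%) were under 200 bp, the shortest peak in the lists. CIN-only regions between genes had a median length of 376 bp (n = 1706), and common regions between genes, present in all 4 lists, one of 620 bp (n = 5507). The length depended on the thresholds, and a −log10 *q* of at least 4 in every list gave a median of 435 bp over 567 regions, most of them not among the 724. With it in the non-CIN lists only, the median was 309 bp. Fold enrichment, the peak caller's ratio of ChIP over input, had a median of 3.73 in replicate 1 (3.13 to 6.05) and 3.88 in replicate 2 (3.30 to 6.58). Over all peaks of the same lists the medians were 4.06 and 4.64.

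Fold enrichment was therefore read as a percentile among all peaks of its own list. A joined peak took the value of its strongest part, so longer joined peaks could take the highest of several values. Of the 724, 607 (83.8%) came from unjoined peaks in both lists. Their source peaks had median lengths of 434 and 401 bp in replicates 1 and 2, and those of common regions 1111 and 1055 bp. The median percentile of these regions was 33.5 in replicate 1 and 23.3 in replicate 2. In replicate 1, 553 (76.4%) lay under the 50th percentile, and in replicate 2, 640 (88.4%) did. None reached the 90th percentile in either list. Only 38 of the 724 (5.25%, 95% Wilson interval 3.85 to 7.12%) lay at or above the 50th percentile in both lists, against 61.1% of common regions between genes. CIN-only regions were read in the CIN lists, where 24.3% of those between genes did so in both. These are other lists, so the CIN-only shares are not like for like. A −log10 *q* of at least 4 in both non-CIN lists, where *q* is the peak caller's adjusted *p*, was held by 130 of the 724 (95% Wilson interval 15.3 to 20.9%), against 79.9% of common regions. In both CIN lists, 49.4% of CIN-only regions held it.

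**Figure D1:**
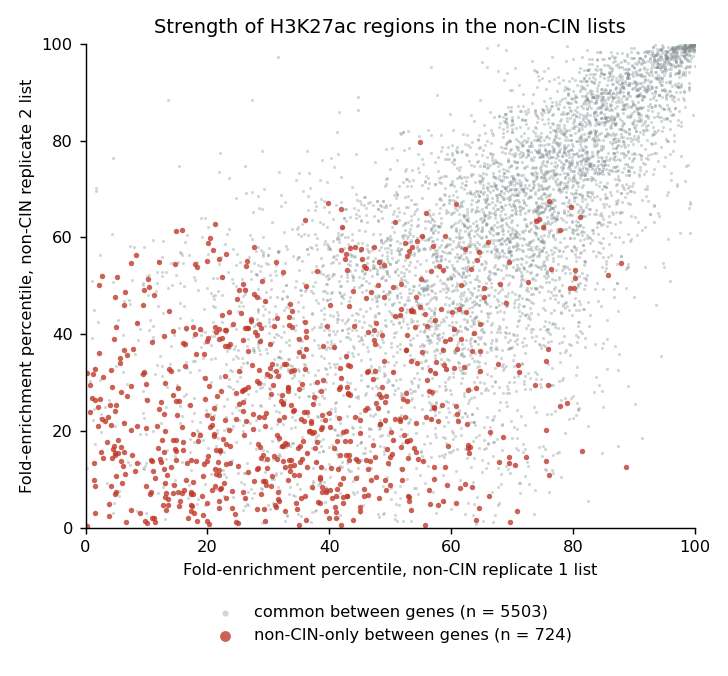
Fold-enrichment percentile of each region in the non-CIN replicate 1 list (x axis) and replicate 2 list (y axis), for non-CIN-only (red, n = 724) and common regions between genes on chromosomes with a protein-coding TSS (gray, n = 5503). The red points fill the lower left, with none at or above 90 on either axis, while the common regions run along the diagonal to the upper right.

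The replicates ranked these regions unlike each other. Across the 724 regions, the Spearman correlation between the percentiles of replicates 1 and 2 was 0.186, while it was 0.702 across all 7398 regions between genes of both non-CIN lists. Regions are not independent replicates, and choosing weak regions narrows the range of ranks, so these values are a description. Longer regions tended to be stronger (Spearman correlation of 0.278 between length and the lower percentile). Strength was nearly unrelated to the distance from a TSS (−0.108) or from a CIN peak (−0.0728). Weakness was shared with the other non-CIN-only regions, whose median lower percentile was 15.7 in genes (n = 1973) and 19.8 in promoters (n = 78), against 17.7 between genes.

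The strongest region lay nearest to *Sorl1*, which encodes a sorting receptor of neurons and other cells. This region of 241 bp had a fold enrichment of 5.04 in replicate 1 (percentile 76.1) and 5.56 in replicate 2 (percentile 67.5), and its centre was 200057 bp downstream of the *Sorl1* TSS, beyond the gene. It had a CIN peak 1114 bp away. The region of 598 bp upstream of *Ttyh3*, a member of a chloride channel family, was nearly as strong in both lists, at 5.27 (percentile 79.7) and 5.49 (percentile 66.3). It lay close to its gene, 2490 bp from the TSS, whose promoter had H3K27ac in all 4 lists. The region of 220 bp upstream of *Wwc1*, a scaffold of the Hippo pathway, had values of 5.38 (percentile 81.2) and 5.35 (percentile 64.2). It was 20727 bp from the TSS and 15146 bp from the nearest CIN peak, and the RefSeq annotation has a long noncoding RNA gene, *Gm42072*, over it.

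The others of the 10 strongest were nearest to *Hs6st1*, a heparan sulfate sulfotransferase, *Fxyd3*, a regulator of the sodium pump, *Stxbp6*, a syntaxin-binding protein, *Arhgap28*, *Akr1a1*, an aldo-keto reductase, *Tifab* and *Reep3*, a protein of the endoplasmic reticulum. Their distances from these genes were very unlike, from 1229 bp at *Fxyd3* to 827347 bp at *Stxbp6*. The nearest gene is a label of position here, and whether it is a target was not tested. The *Arhgap28* region stood farthest from CIN signal, at 72049 bp from the nearest CIN peak. Its gene had promoter H3K27ac in CIN replicate 1 only. None of the 10 strongest had an H3K27me3 peak in its 1 kb window in any list.

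The regions were spread from near promoters to gene deserts. The distance from their centre to the nearest protein-coding TSS had a median of 62093 bp, with 10% under 6418 bp, 10% over 356778 bp and a highest value of 1899491 bp. Over 100 kb from such a TSS lay 265 (36.6%, 33.2 to 40.2%), while 56 lay under 5 kb away and 41 from 5 to 10 kb. Common regions between genes lay at like distances (median 64071 bp, 38.1% over 100 kb), and CIN-only regions between genes farther away (median 109246 bp, 52.1% over 100 kb). Upstream of the nearest protein-coding TSS lay 444 (61.3%), close to 61.1% of CIN-only and 61.2% of common regions. For 232 (32.0%), the nearest TSS of any biotype was that of the nearest protein-coding gene, and the others had a noncoding gene or pseudogene nearer.

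**Figure D2:**
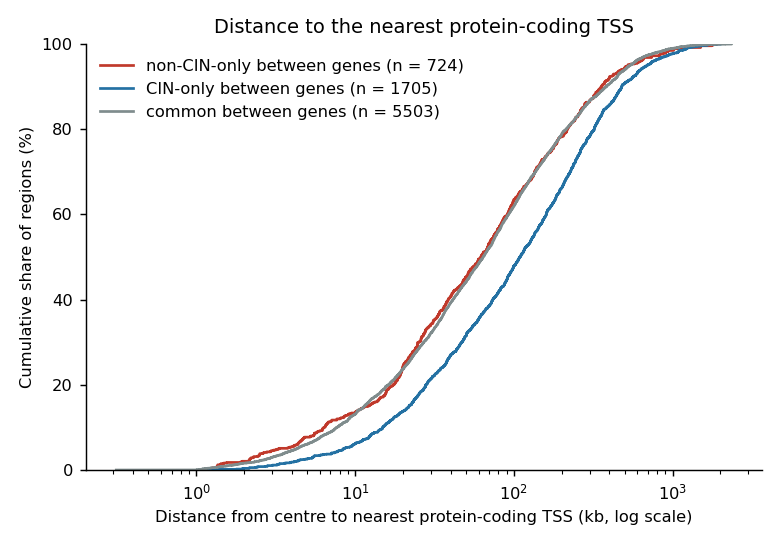
Cumulative share of regions (y axis, %) by distance from the centre to the nearest protein-coding TSS (x axis, kb, log scale) for non-CIN-only (red), CIN-only (blue) and common (gray) regions between genes. The red and gray curves run together, with medians of 62093 and 64071 bp, and the blue curve lies to their right, with a median of 109246 bp.

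Distances to CIN peaks were taken for these regions only, with no other set beside them. After joining, the CIN lists held 53673 and 39646 peaks (replicates 1 and 2), so nearness to one is not read as a trait of these regions. By the rule no region overlapped a CIN peak of either list, but the nearest one lay at a median of 11719 bp. A CIN peak lay within 1 kb of 63 regions (8.70%), within 5 kb of 235 (32.5%) and within 100 kb of 685 (94.6%). In 28 cases a non-CIN peak that gave rise to the region met the CIN list of the other replicate number outside the shared stretch.

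The rule has a sharp edge. Just inside it were a region of 278 bp near *Rnf112* that touched a CIN peak without sharing a base, one near *Kcnrg* 4 bp from a CIN peak and one near *Celf4* 10 bp away. Just outside were regions near *Lyplal1*, *Nsfl1c* and *Lgalsl*, whose longest overlap with a CIN peak was 5, 10 and 11 bp. Just inside, the percentiles in replicates 1 and 2 were 48.3 and 21.4 for the *Rnf112* region, 11.8 and 21 for the *Kcnrg* region and 20.3 and 59.8 for the *Celf4* region. Just outside, they were 28.2 and 56.3 for the *Lyplal1* region, 12.4 and 38.4 for the *Nsfl1c* region and 8.58 and 26.6 for the *Lgalsl* region. The ranges of these few regions overlap in both replicates. The lowest −log10 *q* was that of a region near *Pcdh10*, a protocadherin, at 2.37 in replicate 1. When a −log10 *q* of at least 4 was required in all 4 lists, 567 regions met the rule, and 128 of them overlapped one of the 724.

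With these settings, most regions stood alone. Another non-CIN-only region between genes lay within 100 kb of 115 of them (15.9%, 13.4 to 18.7%), while 40.2% of the 1706 CIN-only and 66.2% of the 5507 common regions had one of their own kind so near. These sets differ in size, which by itself changes such shares. The 15.9% also moved with the settings, to 38.8 and 49.9% with a single replicate, 25.5% with a merging gap of 0 bp, 24.3% at 200 kb and 4.55% with a −log10 *q* of at least 4 in the non-CIN lists. In chains of regions each within 100 kb of the next there were 609 single regions, 50 pairs and 5 groups of 3. Of the 724, 12 shared a merged peak of one replicate with another member, so a few neighbors are 1 broad peak in that list.

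The most compact group of 3 spanned 4889 bp, at least 1499986 bp upstream of *Acvr2a*, which encodes an activin receptor. Its regions, of 756, 120 and 659 bp, had percentiles of 41.9, 20.9 and 21.1 in replicate 1 and of 57.4, 57.4 and 24.7 in replicate 2, where the first and second shared 1 merged peak. No common region and no CIN-only region between genes lay within the group, and the nearest CIN peak to any of its regions was 20123 bp away. The group near *Trappc11*, a subunit of a vesicle tethering complex, spanned 9331 bp and also held neither kind. Its regions of 923, 490 and 173 bp had percentiles of 40.7, 28.5 and 45.0 in replicate 1 and 16.4, 32.6 and 22.3 in replicate 2, all under the middle of their lists. They made up all 3 regions of both non-CIN lists between genes that had *Trappc11* as their nearest gene.

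The other groups of 3 were wider and lay among shared peaks. The group on chromosome X between *Efnb1*, an ephrin ligand of axon guidance, and *Pja1*, a ubiquitin ligase, spanned 138717 bp with 1 common region in it. Its central region of 865 bp was the strongest, at percentiles of 79.6 and 49.6. The group at *Osbpl7*, a lipid-binding protein, and *Tbkbp1* spanned 89042 bp with 2 common regions. The group upstream of *Kazn*, a protein of cell junctions, spanned 145303 bp with 3 common regions, and RefSeq long noncoding RNA genes cover 2 of its regions. The sixth chain was a pair over 13701 bp near *Lpin1*, a lipid phosphatase, with no common region within it.

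**Figure D3:**
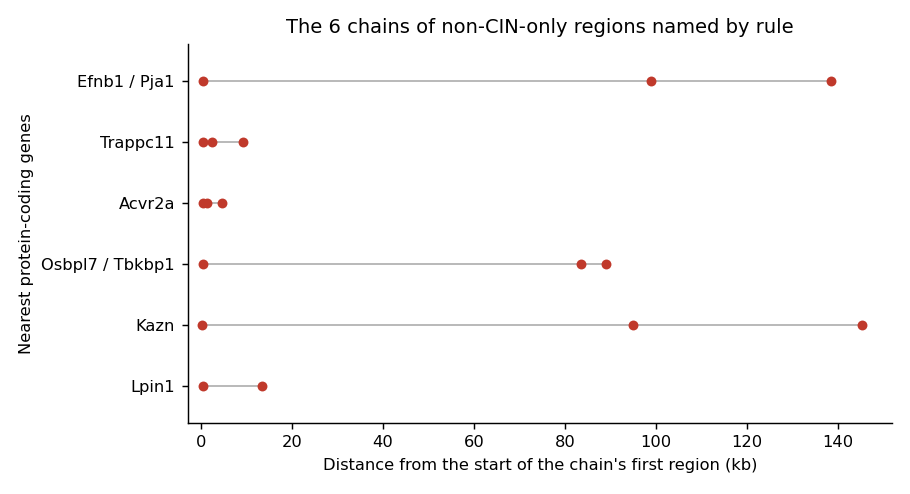
Position of the regions in the 6 chains with most regions, as distance in kb from the start of the first region (x axis), with each chain named by its nearest protein-coding genes (y axis). Points mark region centers and gray lines the span. The *Acvr2a*, *Trappc11* and *Lpin1* chains lie within 13701 bp each, and the others reach from 89042 to 145303 bp.

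The 724 regions had 635 nearest protein-coding genes, of which 555 had 1 region, 72 had 2, 7 had 3 and 1 had 4. *Acvr2a* had the 4, out of 6 regions of both non-CIN lists between genes nearest to it. *Bmper* and *Rgma*, which encode a secreted regulator and a coreceptor of bone morphogenetic protein signaling, had 3 of 12 each, and *Trib2*, a pseudokinase, had 3 of 12. *Has2*, a hyaluronan synthase, had 3 of 6, *Gtdc1*, a glycosyltransferase-like gene, 3 of 5 and *Kazn* 3 of 8. These genes tie with *Trappc11* for the second place, so all are named. By chromosome, the share of non-CIN regions between genes that were non-CIN-only ranged from 6.84% on chromosome 6 to 13.5% on chromosome 15, around the 9.79% of the whole set.

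Near genes known for cell types of the cortex, the share of non-CIN-only regions did not stand clear of the overall share. Each of 6 gene lists was set against the share of all regions of both non-CIN lists between genes, 9.79%. Of the 122 such regions nearest to astrocyte and radial glia genes, 10 were non-CIN-only (8.20%, 4.51 to 14.4%), and of the 63 nearest to pallial excitatory neuron genes, 3 (4.76%, 1.63 to 13.1%). None of 26 near oligodendrocyte lineage genes was, which allows a share of up to 11.5% by 3 counts of the total and 12.9% by the Wilson interval, and 1 of 25 near microglia genes was. Endothelial, pericyte and meningeal genes had 6 of 37 (16.2%, 7.65 to 31.1%) and cortical interneuron genes 6 of 70 (8.57%, 3.99 to 17.5%). All 6 intervals held 9.79%, and no test was run on the lists.

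**Figure D4:**
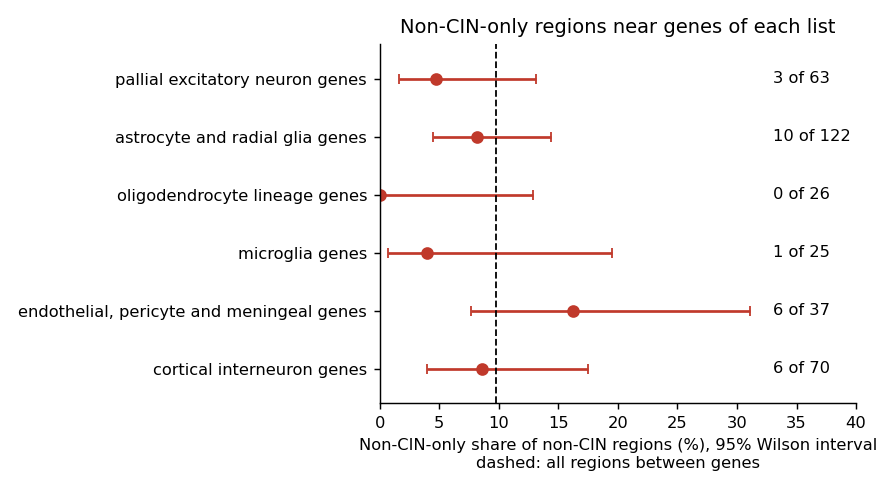
Share of the regions of both non-CIN lists between genes that were non-CIN-only (x axis, %), by the cell type list of the nearest protein-coding gene (y axis), with 95% Wilson intervals over regions and the counts at the right. The dashed line is the 9.79% of all 7398 regions, and it crosses all 6 intervals.

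Among astrocyte and radial glia genes, the strongest region lay 207273 bp downstream of *Sox9*, a transcription factor of glial fate. This region of 443 bp had percentiles of 80.3 in replicate 1 and 51.6 in replicate 2 and lay 311 bp from a CIN peak of replicate 1 and 5308 bp from one of replicate 2. *Ptprz1*, a receptor phosphatase of radial glia, had 2 regions upstream, the stronger at percentiles of 35.5 and 29.8. The region upstream of *Notch1*, the receptor that maintains radial glia, was a shared stretch of only 25 bp, and that upstream of the glutamate transporter gene *Slc1a3* was 192 bp long. Weaker ones lay near *Aqp4*, *Cst3*, *Fgfr3*, *Id1* and *Tnc*. Of these 9 genes, *Fgfr3*, a growth factor receptor of astrocyte precursors, was alone in having promoter H3K27ac in both non-CIN lists and in no CIN list.

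In the list of pallial excitatory neuron genes, *Id2*, an inhibitor of basic helix-loop-helix factors, had 2 of the 3 regions, both upstream. The stronger, of 446 bp and 155937 bp from the TSS, had percentiles of 61.5 and 50.2, and the other, 27432 bp from the TSS, had 67.8 and 33.8. The region 81138 bp upstream of *Neurod1*, a factor of excitatory neuron differentiation, was weak in both lists, at 12.3 and 13.6. *Runx1*, a factor of blood and microglial cells, had a region 19831 bp upstream at percentiles of 33.2 and 28.9.

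The vascular and meningeal genes were *Lef1*, *Foxc1*, *Sox7*, *Cdh5*, *Foxq1* and *Dcn*. The region 45553 bp upstream of *Foxc1*, a factor of meningeal and mural cells, had percentiles of 52.6 and 27.9 and was isolated, 193811 bp from the nearest CIN peak. The region upstream of *Cdh5*, the cadherin of endothelial junctions, was a stretch of 94 bp at percentiles of 22.5 and 44.0. All of these genes but *Lef1*, marked in non-CIN replicate 1 only, had no promoter H3K27ac in any list. Interneuron genes were the nearest to 6 such regions, all over 100 kb away. *Nr2f1*, a factor of both interneurons and cortical area patterning, had one of 551 bp 444912 bp upstream, at percentiles of 40.1 and 46.0, and *Cxcr4*, a chemokine receptor of migrating interneurons, had 2, the stronger 129907 bp upstream, at 79.1 and 25.7. Weaker ones lay near *Nr2f2*, *Satb1* and *Meis1*.

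The promoters of the nearest genes showed little of the difference that chose the regions. Of the 635 genes, 376 (59.2%, 55.3 to 63.0%) had promoter H3K27ac in all 4 lists, close to 58.5% of the 3553 genes nearest to any region of both non-CIN lists between genes. In no list was the promoter of 169 (26.6%) marked, as for 26.6% of the 3553. Promoter H3K27ac in both non-CIN lists and no CIN list was found at 6 genes (0.945%, against 0.873%). These were *Ang2*, *Bdkrb1*, *Dkk2*, *Fam43a*, *Fgfr3* and *Kazn*. The converse, both CIN lists and no non-CIN list, was found at another 6 (0.945%, against 0.929%), *Clvs1*, *Dpp10*, *Gm16223*, *Mfsd6*, *Ndfip2* and *Nenf*. Both shares were near those of the 3553 genes. The regions of *Ang2*, an angiogenin family ribonuclease, and *Bdkrb1*, a bradykinin receptor, lay 1070 and 1361 bp upstream of their TSSs, just beyond the promoter window, whereas those of *Dkk2*, a Wnt antagonist, and *Fam43a* lay 51361 to 221818 bp away.

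H3K27me3 peaks did not enter the choice of the regions, but the mark cannot share a residue with H3K27ac, which did. Peaks were sought in the 1 kb centered on each region. None was found in any of the 4 H3K27me3 lists for 703 of the 724 (97.1%, 95.6 to 98.1%), compared with 91.9% of CIN-only and 96.0% of common regions between genes. Of the 724, 6 and 16 had a peak in CIN replicates 1 and 2, and 4 and 10 had one in non-CIN replicates 1 and 2. More were thus found in replicate 2 of both populations, and its lists also covered more of the genome (44.2 and 49.8 Mb, against 34.5 and 39.4 Mb in replicate 1).

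In both non-CIN H3K27me3 lists, 4 non-CIN-only regions (0.552%) had a peak, against 52 of 1706 CIN-only regions (3.05%). The odds ratio was 0.177 (95% interval 0.0749 to 0.518; Fisher's exact test, two-sided and across regions, *p* = 4.6e-05, adjusted over 4 tests *p* = 0.00018). CIN-only regions were chosen for lacking H3K27ac in non-CINs and the non-CIN-only regions for carrying it there, so the choice can fix the direction of this difference, and nothing is read from it about the regions. In both CIN lists, where it is the non-CIN-only regions that lack H3K27ac, 4 of them (0.552%) had an H3K27me3 peak, against 22 CIN-only regions (1.29%), with an odds ratio of 0.425 (0.169 to 1.29) that missed the threshold (Fisher's exact test, adjusted *p* = 0.18). It passed with the replicate 2 lists alone (16 of 724 against 74 of 1706, Fisher's exact test, adjusted *p* = 0.019) and not with the replicate 1 lists alone (adjusted *p* = 0.37).

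Against common regions between genes, neither comparison passed. Of 5507 common regions, 59 (1.07%) had a peak in both CIN lists and 74 (1.34%) in both non-CIN lists, which gave odds ratios of 0.513 (0.219 to 1.50, Fisher's exact test, adjusted *p* = 0.24) and 0.408 (0.175 to 1.18, Fisher's exact test, adjusted *p* = 0.15). The comparison in non-CIN lists passed Fisher's exact test with replicate 2 alone (10 of 724, adjusted *p* = 0.033) and against the 1598 common regions within the middle 80% of the strength range of the 724 (odds ratio of 0.263, adjusted *p* = 0.013). All of these *p* values count regions as independent units, although they come from 2 samples per population, and are too small for that reason. With so few samples an exact test between populations cannot give a *p* below 1 in 3.

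**Figure D5:**
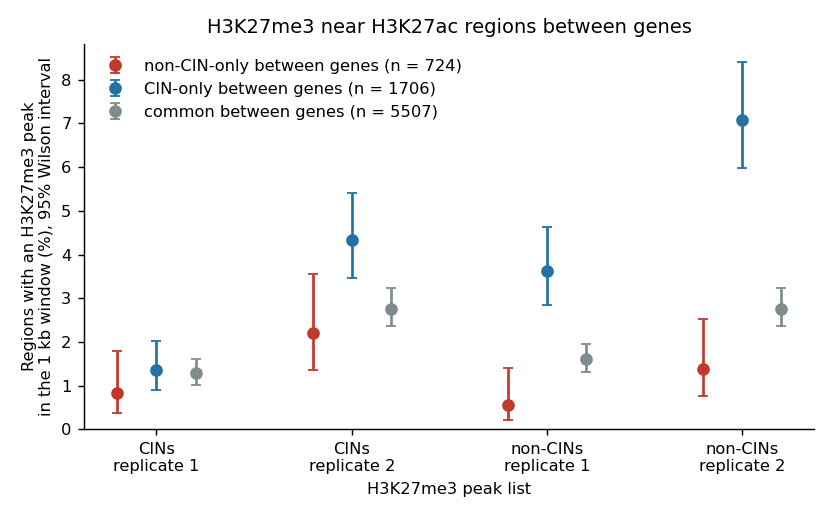
Share of regions with an H3K27me3 peak in the centered 1 kb (y axis, %) in each H3K27me3 list (x axis) for non-CIN-only (red), CIN-only (blue) and common (gray) regions between genes, with 95% Wilson intervals over regions. The red points lie between 0.552 and 2.21%, and the blue points of the non-CIN lists, at 3.63 and 7.09%, lie above them.

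In 3 regions, H3K27me3 was found in all 4 lists. One was the region of 928 bp 4457 bp upstream of *Lef1*, a nuclear effector of Wnt signaling, which had H3K27ac percentiles of 41.8 and 29.2 and whose printed sequence holds cores of 5 motifs. The others lay nearest to *Insig2*, a regulator of sterol synthesis, 279915 bp away, and to *Hsd17b3*, a steroid dehydrogenase, 108443 bp away. A region 9012 bp upstream of *Ppp1r1b*, which encodes the phosphatase inhibitor DARPP, had H3K27me3 in both non-CIN lists and in no CIN list. A region upstream of *Has2* had it in both CIN lists and in replicate 2 of the non-CINs. In no region was it found in both CIN lists and no non-CIN list.

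The DNA of the regions was compared in the 200 bp at their centers, with flanks 5 kb to either side as a control. Median GC content was 47.0%, against 43.5% in the 1448 flanks, 44.5% in CIN-only and 48.0% in common regions between genes. Most of the window was repeat-masked in 21 of the 724 (2.90%), against 19.5% of flanks, 1.58% of CIN-only and 1.84% of common regions. No CpG dinucleotide was found in 124 (17.1%), against 26.3% of flanks and 9.78% of common regions. The regions thus held fewer repeats and more GC than their own flanks, and fewer CpGs than common regions.

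Motif cores were searched on both strands as plain letters. They were SOX (CTTTGT), the E-boxes of NEUROD/NEUROG (CAGATG) and ASCL/TCF (CAGCTG), the NFI half-site (TTGGCA), TEAD (GGAATG), AP-1 (TGACTCA), homeodomain (TAATTA), MEIS (CTGTCA), POU (ATGCAAAT), RUNX (TGTGGTT), ETS (CCGGAA), T-box (GGTGTGA) and RFX (GTTGCCA). The ASCL/TCF and MEIS cores can share 3 bases, as they do in the *Sorl1* region. A match is a stretch of letters and no measured binding, and shares are given with 95% Wilson intervals and no test, since the sets also differ in GC content.

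The homeodomain core, which DLX and LHX factors of interneurons recognize, was found in 36 of the 724 regions (4.97%, 3.61 to 6.81%). It was found in 12.4% of CIN-only regions (11.0 to 14.1%), 6.18% of common regions and 7.53% of flanks. The SOX core was found in 148 (20.4%, 17.7 to 23.5%), against 28.2% of CIN-only regions, 23.6% of common regions and 17.7% of flanks, and the ASCL/TCF E-box in 74 (10.2%, 8.22 to 12.6%), against 16.8%, 15.4% and 7.32%. The NEUROD/NEUROG E-box, of factors of excitatory neurons, was in 89 (12.3%, 10.1 to 14.9%), against 18.8% of CIN-only regions, 14.6% of common regions and 16.0% of flanks. These cores were therefore no more frequent than in common regions.

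The NFI half-site was, of the 13 cores, the one with the largest excess over flanks. It was found in 147 regions (20.3%, 17.5 to 23.4%), against 10.6% of flanks (9.15 to 12.3%), while CIN-only regions had 15.9% and common regions 17.2% (16.2 to 18.2%). How far it stood from the other sets depended on the window. In the 100 bp at the center the shares came to 9.53% in the regions (7.60 to 11.9%), 8.74% in CIN-only, 8.98% in common regions and 5.25% in flanks, and in 300 bp to 28.7% (25.6 to 32.1%), 23.2, 23.8 (22.7 to 24.9%) and 15.4%. The full NFI site, TTGGC and GCCAA with any 5 bases between them, was found in none of the 724 windows, which allows a share of up to 0.414% by 3 counts of the total and 0.528% by the Wilson interval, and in 1 of 1705 CIN-only regions, 3 of 5503 common regions and none of the flanks. Both NFI half-sites of the *Ttyh3* region appear in capitals above, 1 on each strand. AP-1, TEAD, RUNX and T-box cores were found in 3.45, 11.3, 3.73 and 2.35% of the regions and in 3.49, 11.5, 3.87 and 2.47% of common regions. The MEIS core was found in 14.5% (12.1 to 17.3%), against 13.8% of common regions, 18.8% of CIN-only regions and 13.3% of flanks, and the POU core in 1.66% (0.951 to 2.87%), against 2.24, 3.81 and 1.93%. The ETS core was found in 2.07% and the RFX core in 3.18%, against 3.93 and 4.22% of common regions.

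By the RefSeq annotation of the same assembly, 100 of the 724 centers lay in a gene, which for 75 was a long noncoding RNA and for 19 a protein-coding gene. The remaining 624 lay between genes in both annotations, with a median distance from a protein-coding TSS of 63336 bp.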

How the data were processed

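H3K27ac and H3K27me3 were measured by native ChIP-seq in CINs and non-CINs, with 2 replicates each (8 peak lists). The 4 inputs entered only through peak calling. Alignment to mm10 by the authors used BWA *mem* (0.7.15), with a samtools filter on mapping quality. Broad peaks were called for single replicates over their inputs with MACS2, without a model or local background. Its version is 2.2.7 in the submitters' processing notes, and the methods name an earlier one. Per peak, the deposited lists give a score (a scaled −log10 *q*), the fold enrichment (a ratio over input), −log10 *p* and −log10 *q*, as the authors' caller computed them. None is a read count.

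Replicate numbers, taken from the labels, blocked the choice of regions. The members, gene lists, markers and motifs were chosen with earlier results of these data known. The regions named are the 10 with the highest lower percentile, the 6 chains with most members (ties by summed length), the genes with most members, and, per gene list, members nearest to its genes, up to 4 in detail. Fold enrichment became a percentile within its list. H3K27me3 was compared by two-sided Fisher's exact tests across regions, Benjamini-Hochberg adjusted over 4 tests, and other shares have 95% Wilson intervals for counting error only. Tools were Python 3.11.15, SciPy 1.17.1, NumPy 2.4.6, matplotlib 3.10.9 and pysam 0.24.0, and interval operations were tested on simulated data against bedtools 2.31.1. Alternatives changed merging, overlap, thresholds, replicates, block, annotation, windows and distances.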

Additional observations from a re-analysis of the deposited data

How the results depend on the processing

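The number of non-CIN-only regions between genes (724) stayed within 1.5 times under other merging gaps, promoters and annotations (624 to 888). It was 443 with a reciprocal overlap of 50%, 132 with −log10 *q* of at least 4 in the non-CIN lists only, and 2323 to 3345 with a single replicate. The median TSS distance (62093 bp) was 51056 bp with −log10 *q* of at least 4 in every list, 44966 bp with it in the non-CIN lists only, 71883 bp with promoters from 5 kb upstream to 1 kb downstream, 18960 bp with TSSs of every biotype, and 67613 to 73191 bp with a single replicate. The labels do not say whether same-numbered replicates of CINs and non-CINs came from the same sort. The correlation of presence between same-numbered lists was 0.0399 across 70293 joined regions. It cannot decide this, since no value for lists of unlike number stands beside it. With no replicate block there were 817 regions, which held all 724, and with a crossed replicate block 735, and the H3K27me3 odds ratios without the block were 0.732 and 0.287 against CIN-only and 0.913 and 0.726 against common regions (CIN and non-CIN peaks), with no call changed. With 1 H3K27me3 replicate left out, these odds ratios ranged from 0.498 to 0.611 and from 0.147 to 0.183 against CIN-only, and from 0.640 to 0.796 and from 0.342 to 0.493 against common regions. Against common regions of like strength, an alternative chosen after seeing the data, as were the comprehensive GENCODE and the RefSeq annotations, the odds ratio for non-CIN peaks was 0.263. No result reversed. Depth limits what an absent peak can show, and the cause of these changes was not tested.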
